A study of Mus musculus with 8 samples.

Results

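Type 1 innate lymphoid cells (ILC1) are described here as the cells that the authors' deposited annotation calls ILC-1. They were 221 of the 22441 CD45+ cells from beta cell grafts, came from all 4 libraries, and were found in all 16 grafts, with 1 to 60 cells per graft. They formed 1 of the 29 clusters of the annotation, and no cell of another type lay in that cluster. Natural killer (NK) cells of the same grafts, 1515 cells, served as the comparison, since both are group 1 innate lymphoid cells.

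ILC1 and NK cells share the activating receptor NKp46, encoded by Ncr1, the transcription factor T-bet, and the capacity to make interferon gamma. ILC1 are for the most part tissue-resident, carry the collagen-binding integrin CD49a (Itga1) and do not depend on Eomes, whereas NK cells circulate, depend on Eomes, and carry CD49b (Itga2), receptors of the Ly49 family (the Klra genes) and abundant granzyme. Under TGF-beta, NK cells can acquire features of ILC1, so that the border between both types is not sharp.

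The grafts were NIT-1 cells, an insulin-producing line grown from a NOD mouse insulinoma, either WT or Rnls mutant, the gene of renalase. WT and Rnls mutant cells were placed under the skin of opposite flanks of NOD.scid mice, which then received splenocytes of recently diabetic NOD mice, and grafts were taken 10 or 17 days after that transfer. All grafts thus had the same hosts, the same line of origin and the same transferred cells, and differed in the genotype of the graft and the day. CD45+ cells of 4 grafts per genotype and day were sorted, each marked with its own hashtag, and pooled into 1 droplet library, so that genotype at a day and library cannot be told apart. NOD.scid hosts lack T and B cells of their own but keep innate lymphoid cells, and host and transferred ILC1 cannot be told apart in these data. The labels do not tie a hashtag number to a mouse, so WT and Rnls mutant grafts of 1 host could not be paired, and p-values measure the spread between grafts. Day differed between hosts, and both grafts of a host were treated as independent. If the grafts of a host are alike, p-values between the days are too small. The targeted gene was not analysed here.

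The counts were unique molecular identifiers (UMIs) per gene and cell. The median was 2657 UMIs and 1344 genes per ILC1, 2411 UMIs and 1183 genes per NK cell, and 3520 UMIs over all cells, and no cell lay under 1001 UMIs. Levels below are UMIs per 1000000 (CPM) of the summed UMIs of a cell type in a graft. Sums were made from the 8 grafts with 10 or more ILC1, 2 for each genotype and day, which held 169 of the 221 ILC1 and between 27968 and 115846 ILC1 UMIs each. The same 8 grafts held 800 NK cells. Of all cell barcodes, 42 occurred in more than 1 library, 1 of them an ILC1. The doublet caller Scrublet marked 1 cell and so gave no usable call, and of the 1345 cells with the highest scores, 6% of each library, 9 were ILC1.

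The Rnls mutant day 10 graft 1 stood apart. Its 16 ILC1 had a median of 6737 UMIs, against 1878 to 4246 in the other 7 grafts with sums. A UMI of the NK markers Eomes, Itga2, Klra4, Klra7, Klra8 or Klra9 was found in 37 of 221 ILC1, 11 of them in this graft. Of the 177 such UMIs, 126 were in this graft, and so were 8 of the 10 ILC1 with 5 or more of them. Those 10 cells held 5 to 22 NK marker UMIs each at a median of 7076 UMIs per cell, against 2605 UMIs in the other ILC1, and 0 of them were among the cells with the highest doublet scores. For the NK markers Eomes, Klra4 and Klra8, results that rest on this graft are given with and without it. Most other results below are given with it only.

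**Figure D1:**
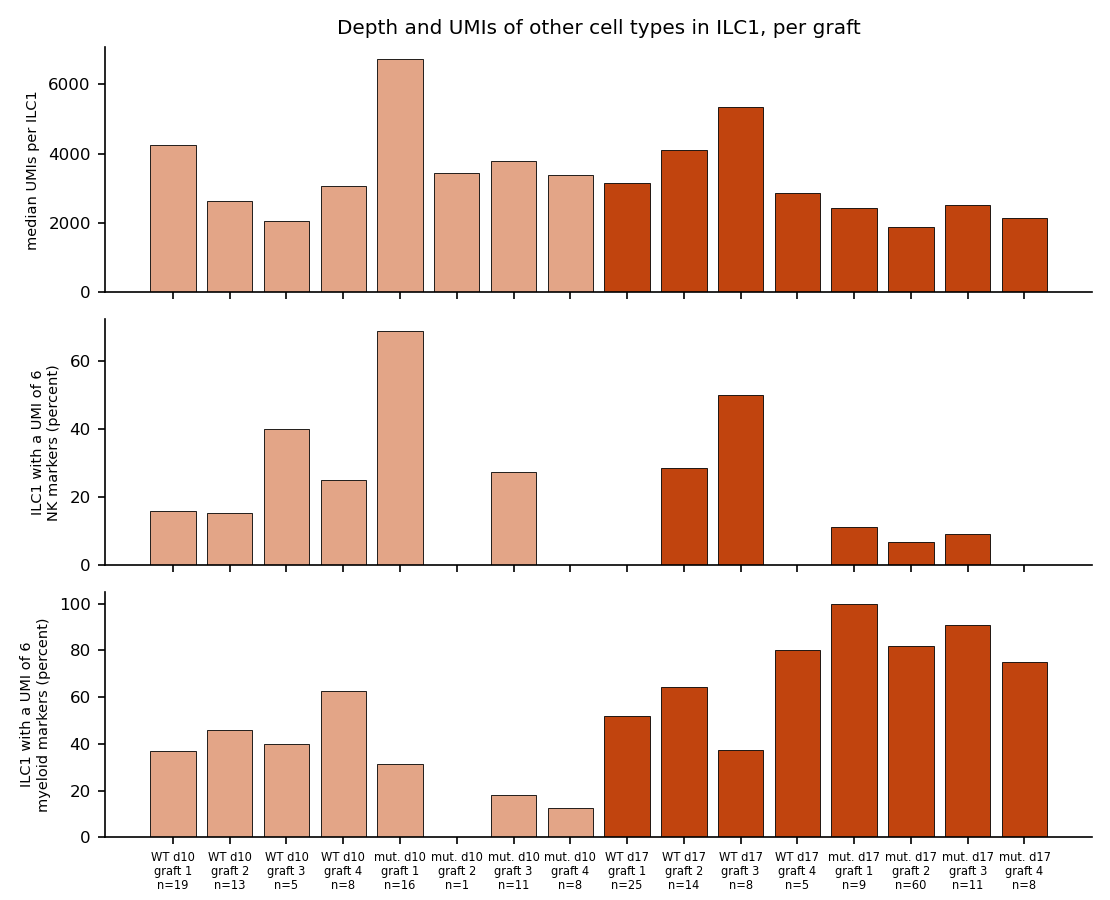
Bars show, for each of the 16 grafts, the median UMIs per ILC1 (top), the percentage of ILC1 with a UMI of the NK markers Eomes, Itga2, Klra4, Klra7, Klra8 or Klra9 (middle), and the percentage with a UMI of the myeloid markers Lyz2, C1qa, C1qb, C1qc, Apoe or Csf1r (bottom), with n the number of ILC1; pale bars are day 10 and dark bars day 17. The Rnls mutant day 10 graft 1 was highest for depth (6737 UMIs) and for NK markers (68.8% of cells), and the Rnls mutant day 17 grafts had a myeloid UMI in at least 75.0% of cells.

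The label was first checked against both defining markers. Ncr1 (chromosome 7:4337724-4345164, GRCm38) was present at 438 to 1000 CPM in ILC1 of the 8 grafts, with a median of 635 CPM, and at a median of 399 CPM in NK cells of 16 grafts. With every cell thinned to 1000 UMIs, 46.6% of ILC1 (exact 95% interval 39.9 to 53.4) and 31.4% of NK cells had an Ncr1 UMI, or 79.6% and 57.2% without thinning. These shares pool both days, which ILC1 and NK cells held in unlike parts. At day 10 the thinned shares were 33.3% (23.2 to 44.7) of ILC1 and 28.5% (25.9 to 31.1) of NK cells. At day 17 they were 54.3% (45.7 to 62.7) and 42.7% (37.1 to 48.4), and the intervals overlapped at each day. Macrophages, which lack NKp46, gave 0.0696% after thinning and 0.237% without it, when their median was 4719 UMIs per cell. Intervals cover counting error only. Both group 1 types thus carried Ncr1 far above the share left by free RNA.

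Itga1 (chromosome 13:114953096-115101964), the alpha chain of CD49a, separated ILC1 from NK cells in level. ILC1 held 106 and 101 CPM in the WT day 10 grafts, 127 and 61.3 CPM in the Rnls mutant day 10 grafts, 107 and 143 CPM in the WT day 17 grafts, and 224 and 179 CPM in the Rnls mutant day 17 grafts. NK cells of the same grafts, in the same order, held 15.5, 19.4, 27.6, 47.5, 51.4, 96.7, 48.1 and 69.1 CPM of Itga1. ILC1 were the higher of the pair in 8 of 8 grafts, although the lowest ILC1 value lay under the highest NK cell value. After thinning, 10.9% of ILC1 (exact 95% interval 7.08 to 15.7) and 1.98% of NK cells had an Itga1 UMI, beside 1.20% of macrophages and 2.81% of CD8 T cells. With both days pooled, the NK cell share lay between those of macrophages and CD8 T cells, and the ILC1 share lay above all of them. By day, the NK cell share was 1.49% at day 10 and 3.91% (2.04 to 6.73) at day 17, and the ILC1 share 8.64% and 12.1%.

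Eomes, the factor on which NK cells depend, was low in ILC1. It was at 59.0 and 25.4 CPM in ILC1 of the WT day 10 grafts, 175 and 40.9 CPM in the Rnls mutant day 10 grafts, 0 and 17.9 CPM in the WT day 17 grafts, and 8.63 and 35.8 CPM in the Rnls mutant day 17 grafts. NK cells of these grafts held between 261 and 567 CPM of Eomes, with no overlap. The highest ILC1 value was that of the Rnls mutant day 10 graft 1. A thinned Eomes UMI was found in 2.26% of ILC1 and 33.6% of NK cells, and in 1.13% of CD4 T cells.

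The annotation was made from these counts, so the differences between ILC1 and NK cells are a description and carry no test. Of 3095 genes, 44 (1.42%) were at least 1 log2 unit higher in ILC1 than in NK cells and higher in all 8 grafts, and 77 (2.49%) were lower in the same sense, 121 (3.91%) in all. The fit had each graft as a block. This count was 56 with grafts of 5 or more cells entered, 20 without cells holding 2 or more T cell receptor UMIs, 183 without the WT day 17 graft 2 and 184 without the Rnls mutant day 17 graft 2. For the count of 20, such cells were left out of ILC1 only, with NK cells kept whole and a minimum of 1 cell per graft. The rule asks for the same direction in every graft, so it is stricter with more grafts and looser with fewer. The median log2 difference over all genes was -0.05. Of the ILC1 markers, 8 of the 12 measured were among the higher genes and 0 among the lower, with a median log2 difference of 2.54. Of the NK markers, 8 of 12 were among the lower and 0 among the higher, with a median of -3.94. Of the markers that both types share, 1 of 13 was lower and 0 were higher, with a median of 0.22.

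The genes with the largest excess in ILC1 were Tmem176a, at a log2 difference of 4.75 ± 0.41 (SE, n = 8 grafts), and its neighbour Tmem176b at 4.29. Both encode membrane proteins of innate and antigen-presenting cells and lie side by side on chromosome 6 (48840919-48847071 and 48833818-48841496), where their ends overlap on opposite strands. Tmem176a was at 260 and 380 CPM in ILC1 of the WT day 10 grafts, 48.7 and 204 CPM in the Rnls mutant day 10 grafts, 202 and 305 CPM in the WT day 17 grafts, and 190 and 179 CPM in the Rnls mutant day 17 grafts, against 0 to 12.8 CPM in NK cells. It was not particular to ILC1, since macrophages (median 225 CPM) and dendritic cells (median 207 CPM) held as much as ILC1 (median 203 CPM).

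Pdcd1, which encodes the inhibitory receptor PD-1, followed at 3.97 ± 0.43. ILC1 held 448 and 330 CPM in the WT day 10 grafts, 195 and 143 CPM in the Rnls mutant day 10 grafts, 821 and 161 CPM in the WT day 17 grafts, and 293 and 215 CPM in the Rnls mutant day 17 grafts. NK cells held 0 to 47.5 CPM of Pdcd1 in 7 of the grafts and 167 CPM in the WT day 17 graft 1. Among the 10 annotated types with 10 or more cells in a graft, ILC1 had the highest median of Pdcd1, at 254 CPM, above CD8 T cells (111 CPM) and CD4 T cells (93.3 CPM), but the lowest ILC1 graft lay within the range of CD8 T cells (52.2 to 240 CPM).

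Cxcr6, the receptor for CXCL16 and a mark of tissue residency, was at 3.25 ± 0.31. Its level in ILC1 was 708 and 1015 CPM in the WT day 10 grafts, 107 and 593 CPM in the Rnls mutant day 10 grafts, 1393 and 269 CPM in the WT day 17 grafts, and 639 and 536 CPM in the Rnls mutant day 17 grafts. NK cells of the same grafts held 0 to 220 CPM. The medians of ILC1 (616 CPM) and CD4 T cells (603 CPM) were close for Cxcr6, and the ranges overlapped.

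The other genes chosen for the largest excess in ILC1 were Gzmc (a granzyme, 3.96), Furin (a proprotein convertase that can activate TGF-beta, 3.38), St6galnac3 (a sialyltransferase, 2.85), Cd226 (the activating receptor DNAM-1, 2.82), Inpp4b (a phosphoinositide phosphatase, 2.52) and Ramp1 (a subunit of the CGRP receptor, 2.52). Of the 10 genes, Pdcd1, Furin, Cxcr6, St6galnac3, Cd226 and Ramp1 had their highest median of those 10 types in ILC1. In the Rnls mutant day 10 graft 1, Cd226 was lowest at 97.3 CPM, against 307 to 644 CPM in the other grafts. Rora, a nuclear receptor of innate lymphoid cells, was 2.43 ± 0.21 higher in ILC1 than in NK cells, and was again low in that graft, at 107 CPM against 590 to 1857 CPM in the other grafts.

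Further ILC1 markers were counted as higher or not by their graft values. Cd200r1, the receptor for CD200, differed by 3.68 ± 0.74 in 8 of 8 grafts, and Ltb, encoding lymphotoxin beta, by 2.09 ± 0.20 in 8 of 8. The interleukin 7 receptor gene Il7r (2.56) and the oxysterol receptor gene Gpr183 (3.01) were higher in 7 of 8 grafts, with the Rnls mutant day 10 graft 1 as the exception. Tcf7 (-1.71) and Cd7 (-0.47) had the opposite sign to the other ILC1 markers. Tnfsf10 (TRAIL) and Ckb had too few UMIs to be measured.

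On the NK side, Gzma, the most abundant granzyme of NK cells, was lower in ILC1 by 3.98 ± 0.12 in 8 of 8 grafts. It was at 484 and 355 CPM in ILC1 of the WT day 10 grafts, 876 and 654 CPM in the Rnls mutant day 10 grafts, 440 and 215 CPM in the WT day 17 grafts, and 242 and 429 CPM in the Rnls mutant day 17 grafts. NK cells held 5138 to 9637 CPM of Gzma, so that no graft came near. Prf1, encoding perforin, differed little by comparison, at -0.73 ± 0.16, and was lower in 7 of 8 grafts.

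The gene with the largest deficit was Serpinb9b, an inhibitor of granzymes. The 8 grafts held 1 Serpinb9b UMI in ILC1 and 645 in NK cells, a ratio of levels of 158 (counting interval 28.3 to 6260). Eomes was lower by 3.90, Aff3 by 3.90 and Itga2 by 3.86 on the log2 scale.

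The Ly49 receptor genes Klra1, Klra4, Klra7, Klra8 and Klra9 were all among the 10 genes with the largest deficit, and they lie in 1 stretch of chromosome 6 (130043731-130386874). Klra8 was at 0 UMIs in ILC1 of 6 of the 8 grafts, at 11.8 CPM in the WT day 10 graft 1 and at 136 CPM in the Rnls mutant day 10 graft 1, against 333 to 867 CPM in NK cells. The ratio of the summed Klra8 levels, NK cells over ILC1, was 18.7 (counting interval 11.3 to 33.5) in all 8 grafts and 233 (41.8 to 9225) without that graft, which held 14 of the 15 ILC1 UMIs. For Klra4, the ratio was 11.7 (9.05 to 15.3) with the graft and 292 (80.7 to 2411) without it. These genes are close copies of each other, and 3' reads could have been split among them. Their names and positions are those of the mm10 reference, while hosts and donors were NOD strains. Which Ly49 genes of NOD mice the reads came from was not examined. Klra5, named after its values were seen, had the opposite sign, at a log2 difference of 0.68 ± 0.31 and higher in ILC1 in 4 of 8 grafts.

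**Figure D2:**
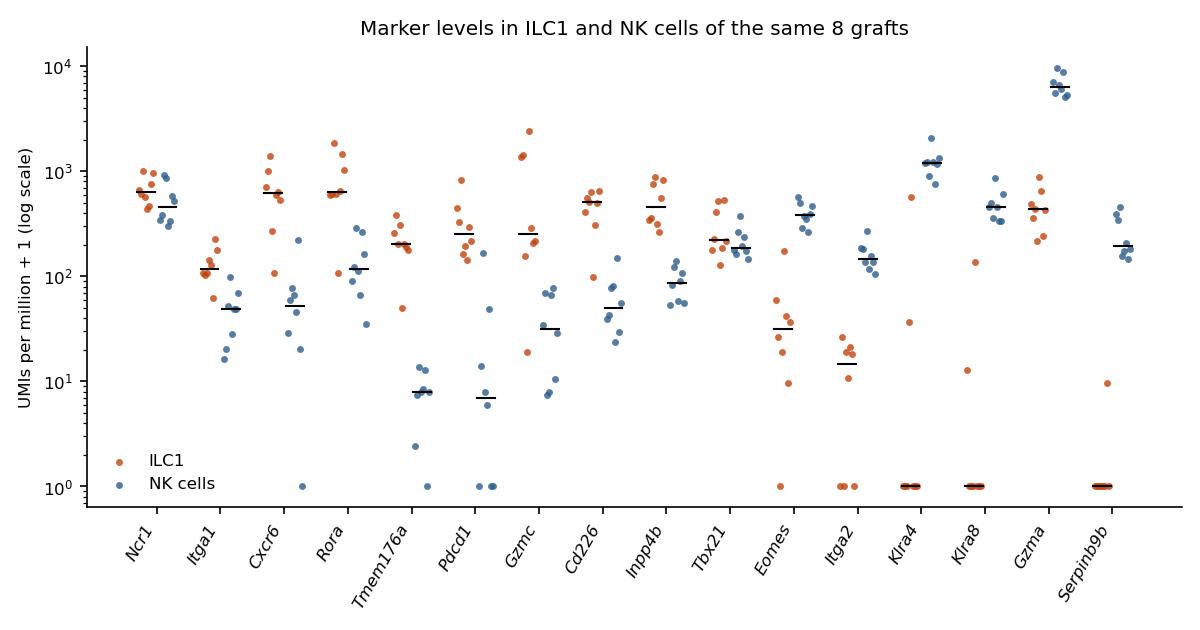
Each point is the level of a gene in 1 of the 8 grafts, as UMIs per 1000000 plus 1 on a log scale, in ILC1 (orange) or NK cells (blue), and the black line is the median. Cxcr6, Rora, Tmem176a, Pdcd1, Gzmc, Cd226 and Inpp4b were higher in ILC1 in each graft, Ncr1 and Tbx21 overlapped, and Eomes, Itga2, Klra4, Klra8, Gzma and Serpinb9b were lower in each graft; the highest ILC1 point of Klra4, at 574 CPM, is the Rnls mutant day 10 graft 1.

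Most genes that both types are known to share were close in level. The fitted log2 difference between ILC1 and NK cells was 0.40 ± 0.15 for Ncr1, 0.31 ± 0.19 for Tbx21 (T-bet), 0.22 ± 0.14 for Il2rb (the receptor chain for interleukin 2 and interleukin 15), 0.15 for Fcer1g and -0.22 for Nkg7. Ccl5, a chemokine of cytotoxic lymphocytes, was lower in ILC1 by 1.75, in 8 of 8 grafts. The adaptor gene Tyrobp was at -1.18 (lower in 7 of 8 grafts) and Klrb1c, encoding NK1.1, at -0.65. The chemokine gene Xcl1 was at 0.71 (higher in 6 of 8).

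Cytokine transcripts varied between grafts. Ifng, encoding interferon gamma, was at 2289 and 380 CPM in ILC1 of the WT day 10 grafts, 58.4 and 797 CPM in the Rnls mutant day 10 grafts, 1905 and 179 CPM in the WT day 17 grafts, and 552 and 429 CPM in the Rnls mutant day 17 grafts. The fitted difference from NK cells was 1.51 ± 0.38, but it was higher in ILC1 in 5 of 8 grafts only, so Ifng was not counted as different. Tnf had 8, 3, 0, 0, 6, 3, 9 and 3 UMIs in the same order of grafts, and was higher in ILC1 than in NK cells in 6 of 8 grafts (3.30). Csf1, a macrophage growth factor named after its values were seen, had 2, 2, 1, 6, 18, 5, 12 and 0 UMIs in ILC1, and was higher in 7 of 8 grafts (3.66).

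Transcripts of other cell types were examined in turn. Of the T cell receptor complex, Cd3e was found after thinning in 1.36% of ILC1, 0.396% of NK cells and 60.8% of CD4 T cells, and Trac in 0.905% of ILC1 and 42.2% of CD4 T cells. Cd3d was found in 3.17% of ILC1 and 10.6% of NK cells, and Cd3g in 14.5% and 18.9%, above macrophages at 0.251% and 0.125%. Trbc2, a constant segment of the T cell receptor beta locus, was found in 29.9% of ILC1, 14.5% of NK cells, 0.237% of macrophages and 64.4% of CD4 T cells. It was higher in ILC1 than in NK cells in 8 of 8 grafts (log2 difference 0.81). Of the 6 genes of the T cell receptor complex measured, only this 1 had a difference above 0. The median of the 6 was -0.59, and 1 of them was counted as lower in ILC1. Counting 2 or more UMIs of Cd3d, Cd3e, Cd3g, Trac, Trbc1 or Trbc2, 54.3% of ILC1 and 54.4% of NK cells passed. Trdv4, a variable segment of the T cell receptor delta locus, was found in 10.9% of ILC1 and 2.38% of NK cells, and in 0.0410% of CD4 T cells.

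Of the 12 markers of ILC2 and ILC3, 7 had no UMI in ILC1 of the 8 grafts, and only Areg and Klrg1 were measured. The 8 beta cell genes were at 0 UMIs, and 7 of 8 granulocyte genes had none. Lyz2, the lysozyme of macrophages, was found in 28.1% of ILC1, 18.3% of NK cells, 18.1% of CD4 T cells and 96.9% of macrophages after thinning. These Lyz2 shares pool both days, which ILC1 and NK cells held in unlike parts. The ILC1 share lay under that of NK cells at day 10 and above it at day 17, with overlapping intervals at each day. Within grafts, the fitted Lyz2 difference from NK cells was -0.40 ± 0.22, and ILC1 were higher in 2 of 8 grafts. Csf1r, the receptor that defines macrophages, had 0 UMIs in ILC1. Over 4913 genes, the mean profile of ILC1 was closest to NK cells (Spearman rho 0.899), then to CD4 T cells (0.854) and CD8 T cells (0.853). Genes are not independent replicates, and the profiles share libraries.

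The number of ILC1 relative to other cells was compared over all 16 grafts. ILC1 made up 0.0660% to 1.02% of CD45+ cells at day 10 (median 0.548%) and 0.466% to 4.00% at day 17 (median 1.44%), and the ranges overlapped. The mean share rose by 1.36 percentage points, from 0.563% ± 0.329 (SD, n = 8) to 1.93% ± 1.39 (exact two-sided permutation test with days exchanged within genotype, p = 0.0110, adjusted over 4 share tests 0.0220). In WT grafts alone it was higher by 1.66 points (exact p = 0.0571) and in Rnls mutant grafts alone by 1.07 points (exact p = 0.171).

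Relative to NK cells, the days were further apart. ILC1 were 1.85% to 15.9% of ILC1 and NK cells together at day 10 and 15.1% to 60.6% at day 17, with 1 graft of each day overlapping. The mean share rose from 6.86% to 28.4%, by 21.6 points (exact permutation p = 0.000408, the smallest that 4900 assignments can give, adjusted 0.00163), and by 21.0 points in WT and 22.2 points in Rnls mutant grafts (exact p = 0.0286 in each). Over all grafts, 1208 NK cells and 81 ILC1 were found at day 10, and 307 NK cells and 140 ILC1 at day 17. The 4900 assignments treat both grafts of a host as independent, whereas the tests within a genotype hold 1 graft per host. Shares are relative, and more ILC1 and fewer of the other cells cannot be told apart.

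Neither share passed a test between genotypes. The difference, Rnls mutant minus WT, was -0.350 points for ILC1 among CD45+ cells (exact p = 0.512) and 3.79 points among ILC1 and NK cells (exact p = 0.590, adjusted 0.590 for both). The second value became -1.20 without the Rnls mutant day 17 graft 2, which held 60 ILC1, or 60.6% of its ILC1 and NK cells. A p that misses the threshold does not show that the genotypes had equal shares.

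**Figure D3:**
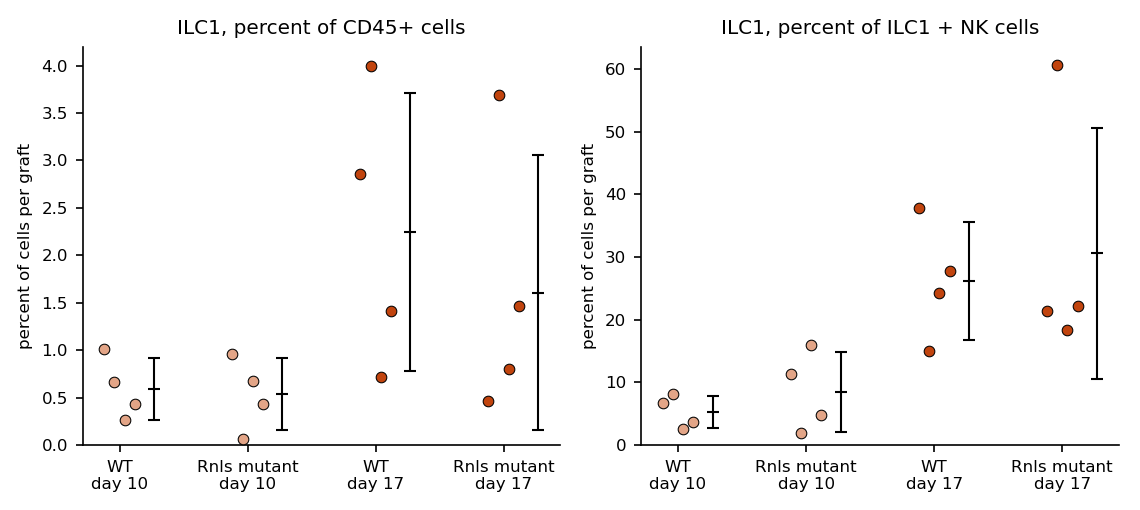
Points are the 16 grafts, 4 per genotype and day, with the percentage of ILC1 among CD45+ cells on the left and among ILC1 and NK cells together on the right; the bars give the mean and SD. The day 17 mean lies higher in both genotypes, most clearly on the right, where the Rnls mutant day 17 graft 2 is highest at 60.6%. On the left, grafts of both days overlap within each genotype.

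Between day 10 and day 17, many immediate early genes rose in ILC1, while most ribosomal protein and glycolysis genes tested and the granzyme genes Gzmb and Gzmc fell. Of 1770 genes tested with edgeR's quasi-likelihood test, 275 (15.5%) differed at a Benjamini-Hochberg adjusted p of 0.05, 129 (7.29%) higher and 146 (8.25%) lower at day 17. Scaled to total UMIs in place of TMM, 202 were higher and 108 lower, since the median of all genes moved from 0.04 to 0.24. The count was 110 without the WT day 10 graft 1 and 101 without the Rnls mutant day 17 graft 2. In the 8 grafts with fewer than 10 ILC1, which the test had not used but which came from the same libraries, 149 of the 152 called genes that could be measured (98.0%) moved the same way, against 371 of 447 (83.0%) of all genes.

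Of 30 immediate early genes, 26 were tested, and 15 rose and 0 fell, with a median log2 difference of 1.55. Over all genes, 7.29% were higher. Summed over the list, ILC1 held 5606 to 13418 CPM at day 10 and 15316 to 27439 CPM at day 17, with no overlap. Klf6, a zinc finger factor induced by stress, was at 59.0 and 50.7 CPM in ILC1 of the WT day 10 grafts, 117 and 307 CPM in the Rnls mutant day 10 grafts, 702 and 448 CPM in the WT day 17 grafts, and 699 and 1216 CPM in the Rnls mutant day 17 grafts. Every day 17 graft was above every day 10 graft (log2 difference 2.60 ± 0.38, edgeR adjusted p = 0.00273). After thinning, a Klf6 UMI was found in 12.3% of ILC1 at day 10, 36.4% at day 17 and 49.8% of macrophages. Without ILC1 that held a myeloid UMI, the Klf6 difference was 2.17 (edgeR adjusted p = 0.0309).

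Nr4a3, an orphan nuclear receptor induced by antigen and cytokine signals, rose from 212, 76.1, 77.9 and 102 CPM to 750, 574, 889 and 608 CPM (2.39 ± 0.34, edgeR adjusted p = 0.00247; WT grafts 1 and 2 first, then Rnls mutant grafts, at each day). Junb (1.37), Jund (0.89), Btg2 (1.92) and the NF-kB inhibitor Tnfaip3 (1.85) rose too. Btg1, the other anti-proliferative BTG member, was at 0.21 (edgeR adjusted p = 0.503). Fos, a subunit of the AP-1 factor, had 0, 0, 0 and 2 UMIs in ILC1 at day 10 and 10, 12, 18 and 44 UMIs at day 17, a ratio of 40.9 (counting interval 11 to 343, edgeR adjusted p = 0.0117). Macrophages had a thinned Fos UMI in 40.4% of cells, against 12.9% of ILC1 at day 17, and the part of macrophage RNA in the rise of Fos was not tested.

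Outside that list, the smallest p-values among the rising genes belonged to Lncpint, a p53-regulated long noncoding RNA, and Dennd4a, a Rab exchange factor. Lncpint went from 82.6, 127, 87.6 and 123 CPM to 643, 699, 829 and 1180 CPM (2.80 ± 0.31, edgeR adjusted p = 0.00113), and Dennd4a rose by 2.07 ± 0.25 (0.00134). Neurl3, a ubiquitin ligase, rose by 2.08. Gm42418, a gene that overlaps ribosomal RNA repeats, rose by 1.42 over both genotypes, at 0.07 in WT and 2.76 in Rnls mutant grafts.

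Gzmb and Gzmc fell. Gzmb (granzyme B, chromosome 14:56258838-56262260) was at 1687 and 1547 CPM in ILC1 of the WT day 10 grafts, 2248 and 2045 CPM in the Rnls mutant day 10 grafts, 226 and 126 CPM in the WT day 17 grafts, and 155 and 751 CPM in the Rnls mutant day 17 grafts. The days did not overlap (-3.01 ± 0.42, edgeR adjusted p = 0.00214), and the share of ILC1 with a thinned Gzmb UMI went from 55.6% to 15.0%, beside 0.376% of macrophages. Gzmc fell with it, from 1357, 1420, 2394 and 286 CPM to 155, 17.9, 207 and 215 CPM (-3.50 ± 0.62, adjusted p = 0.00428). Of the 10 cytotoxic effector genes tested, these 2 fell and 0 rose, beside 8.25% of all genes lower and 7.29% higher. Gzma was at -1.03 (adjusted p = 0.0546) and Prf1 at -0.61 (0.370).

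Ribosomal protein genes fell together, with 25 of 30 lower, 0 higher and a median of -0.99, beside 8.25% of all genes lower. Their summed level was 91956 to 124411 CPM at day 10 and 57266 to 70374 CPM at day 17. Rpl32 went from 5062, 4718, 6180 and 5112 CPM to 2524, 2618, 2279 and 2574 CPM (-1.27 ± 0.19, edgeR adjusted p = 0.00277). Hspd1, the mitochondrial chaperonin HSP60, went from 614, 1116, 1294 and 573 CPM to 107, 89.7, 104 and 35.8 CPM (-3.47 ± 0.43, edgeR adjusted p = 0.00134). At the same time the median UMIs per ILC1 in the grafts with sums were 2631 to 6737 at day 10 and 1878 to 4104 at day 17, and the part of this difference in the fall was not tested.

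Over all genes tested, 8.25% were lower and 7.29% higher at day 17. Of 10 glycolysis and hypoxia genes tested, 6 fell and 0 rose, with a median of -1.39. Tpi1, a triosephosphate isomerase, went from 177, 330, 243 and 348 CPM to 59.5, 108, 17.3 and 0 CPM (-3.07 ± 0.46, edgeR adjusted p = 0.00277), and Aldoa (-1.95), Pkm (-1.89), Pgk1 (-1.63) and Gapdh (-1.29) fell as well. Among 12 mitochondrial transcripts, mt-Nd3 (-1.34) and mt-Atp8 (-1.09) fell and 0 rose. Of 6 type I interferon genes, Ifi27l2a fell (-2.08), while Bst2 was at -0.87 and Ly6a at -0.58 without passing.

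Some receptor, homing and transcription factor genes were called, beside 7.29% of all genes higher and 8.25% lower, and no list was tested as a set. Of 11 cytokine receptor genes, Il7r (1.78) and the interleukin 18 receptor subunit gene Il18rap (1.35, adjusted p = 0.0218) rose and 0 fell. Of 14 homing and residency genes, the integrin gene Itga4 (1.12), Klf2 (2.10), which directs lymphocyte circulation, and Cd69, which opposes tissue egress (1.77, adjusted p = 0.0435), rose and 0 fell. Of 17 transcription factors, 5 rose, among them Runx1 (1.50), Bach2 (1.33), Tbx21 (1.15) and Klf6, and Runx3 fell (-1.32). All of these are from the same edgeR fit.

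Genes of the TGF-beta response, which can turn NK cells towards ILC1, moved both ways, beside 7.29% of all genes higher and 8.25% lower. Of 11 tested, Smad3, a signal transducer of the pathway (1.67, adjusted p = 0.0300), and Inpp4b (1.01, adjusted p = 0.0283) rose, and Rgs16, a regulator of G protein signals, fell (-2.12, adjusted p = 0.00586) in the edgeR fit. Skil, a feedback inhibitor of SMADs, was at 0.47 (0.347).

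Of 11 ILC1 markers, Inpp4b and Il7r rose and 0 fell, beside 7.29% of all genes higher and 8.25% lower, and Itga1 (0.43), Cxcr6 (0.28) and Tmem176a (0.05) did not pass. Of the shared markers, Tbx21 rose and Tyrobp fell (-1.71, edgeR adjusted p = 0.0135), while Ncr1 was at 0.41 (0.331). Of 5 NK markers tested, 0 passed in edgeR. MHC class I genes did not pass in any of 13. The chemokine gene Ccl4 rose (1.87) among 7 cytokine genes, and the inhibitory receptor gene Klrc1 (NKG2A) rose (1.26) among 11 Klr receptors.

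Myeloid transcripts moved with the day. Lyz2 rose by 2.10 ± 0.35 (edgeR adjusted p = 0.00406), and the 14 macrophage and monocyte genes together were at 263 to 431 CPM in ILC1 of the day 10 grafts and 536 to 1554 CPM at day 17. H2-Ab1, an MHC class II gene, rose by 1.41 as 1 of 4 dendritic cell genes, beside 7.29% of all genes higher. With ILC1 that held a UMI of Lyz2, C1qa, C1qb, C1qc, Apoe or Csf1r left out, and grafts with 5 or more remaining ILC1 kept, 121 genes were called between the days. The part of myeloid RNA in the difference was not tested.

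By genotype, the day difference passed for 7 genes (0.395%) in WT grafts, 3 higher (0.169%) and 4 lower (0.226%). It passed for 155 (8.76%) in Rnls mutant grafts, 72 higher (4.07%) and 83 lower (4.69%). Of these genes, 5 were shared, 71.4% of the former and 3.23% of the latter. That does not show a difference between genotypes: the test of the difference itself passed for 1 gene of 1770. Over all genes, the 4 grafts of a day did not overlap those of the other day in 373 of 1770 (21.1%), and in 216 of the 275 called (78.5%).

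**Figure D4:**
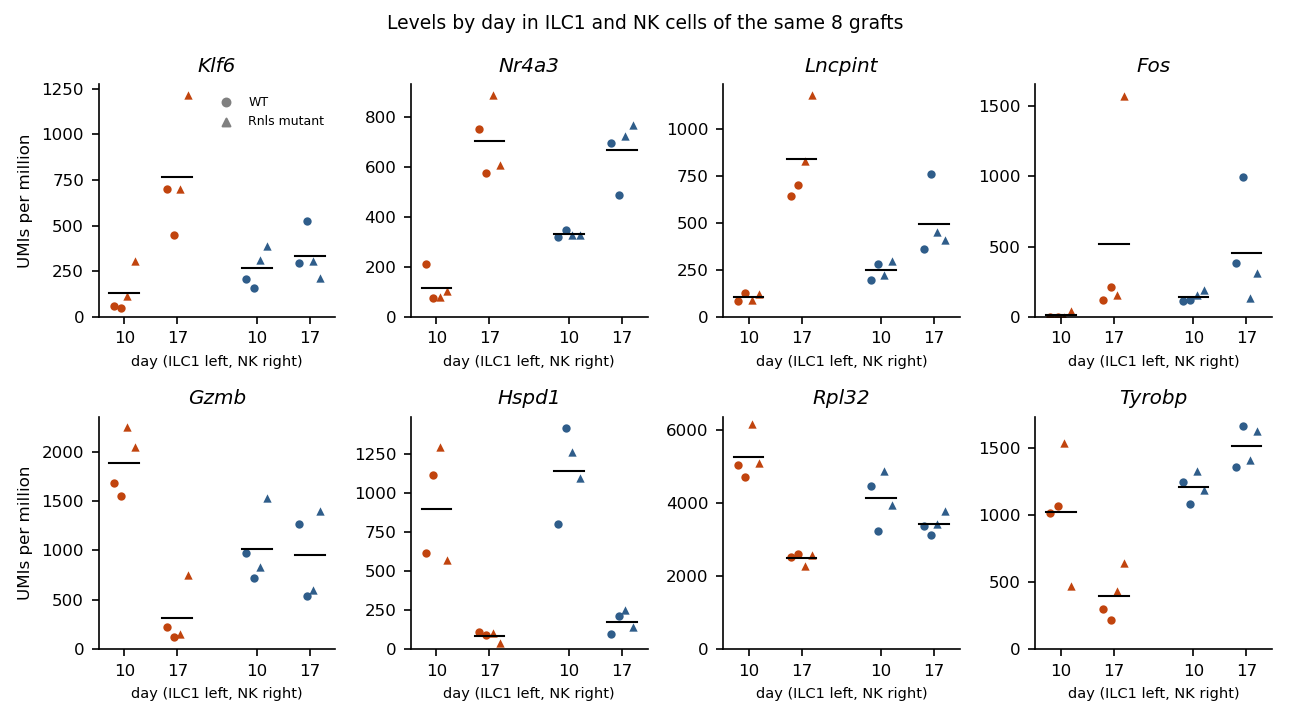
Each point is a graft, with circles for WT and triangles for Rnls mutant grafts, and shows UMIs per 1000000 in ILC1 (left pair of days, orange) or NK cells (right pair, blue); the line is the mean of the 4 grafts of a day. Klf6, Gzmb and Tyrobp differed more between the days in ILC1 than in NK cells of these 8 grafts (Tyrobp did not in the grafts with fewer ILC1, at 0.35), and Hspd1 fell in both.

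The same days were compared in NK cells of the same 8 grafts. Of 4340 genes, 149 (3.43%) passed between the days in NK cells. Of the 275 genes called in ILC1, 272 were tested in NK cells, and 48 were called there too, which is 17.6% of the 272 and 32.2% of the 149. More of them, 245 of 272 (90.1%), had the same direction in NK cells, and 67 were called for a difference between both types. Hspd1 was 1 of the genes called in both, at -2.83 in NK cells (edgeR adjusted p = 3e-06), and so were Nr4a3 (0.88, adjusted p = 0.0118), Btg2 (1.17), Gzmc (-2.38) and Dennd4a (0.83).

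The difference between both types was tested in a fit of all 16 sums with the graft as a block, in which a shift of a whole library enters both types. Of 3095 genes, 91 (2.94%) had a different day effect in ILC1, 47 (1.52%) towards higher and 44 (1.42%) towards lower. The count was 44 without the WT day 10 graft 1, 58 without the Rnls mutant day 10 graft 1, 153 without the WT day 17 graft 2, 28 without the Rnls mutant day 17 graft 2 and 60 without the Rnls mutant day 17 graft 3. In the 8 grafts not used, 85 of 90 of these genes (94.4%) had the same sign, against 1220 of 1790 (68.2%) of all genes. Without the graft block, 4 genes were called.

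Gzmb had the smallest p. In NK cells, Gzmb was at 974, 722, 827 and 1533 CPM at day 10 and 1272, 539, 597 and 1403 CPM at day 17, a difference of -0.18, so that ILC1 fell by 2.89 ± 0.31 more (edgeR adjusted p = 1.35e-06). At day 10, Gzmb was higher in ILC1 than in NK cells in 4 of 4 grafts, and at day 17 it was lower in 4 of 4. Tyrobp, which carries signals of activating NK receptors, fell in ILC1 from 1015, 1065, 1538 and 470 CPM to 298, 215, 432 and 644 CPM, and was at 1248, 1085, 1330 and 1188 CPM and then 1362, 1662, 1415 and 1631 CPM in NK cells (difference -1.83 ± 0.32, adjusted p = 0.00246). In the 8 grafts with fewer than 10 ILC1 alone, this Tyrobp difference was 0.35 and did not pass (adjusted p = 0.869). Sh2d1a, encoding the SLAM adaptor SAP, had a difference of -3.43, Tmsb4x of -0.84, Rpl32 of -0.91 and Rpl35 of -1.06.

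Fos and Klf6 rose more in ILC1. Klf6 in NK cells was at 207, 159, 313 and 386 CPM at day 10 and 296, 525, 308 and 214 CPM at day 17 (0.24), a difference of 2.42 ± 0.42 (edgeR adjusted p = 0.00246). For Fos, which rose in NK cells by 1.41, the difference was 5.03 ± 0.82 (adjusted p = 0.00195), with 2 UMIs behind the day 10 level in ILC1. St6galnac3 rose in ILC1 from 260, 254, 58.4 and 348 CPM to 845, 574, 803 and 501 CPM, while NK cells held 85.9, 77.7, 37.6 and 166 CPM and then 83.5, 10.4, 38.5 and 0 CPM (difference 3.06 ± 0.52, adjusted p = 0.0023). Lncpint (1.94), the interferon-related developmental regulator Ifrd1 (1.53) and Gramd3 (2.13) also rose more in ILC1.

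By list, the difference in day effect was towards higher for 5 of 28 immediate early genes (median 1.04, 0 towards lower). It was towards lower for 9 of 30 ribosomal protein genes (median -0.60) and 3 of 14 glycolysis genes (median -0.67). Over all genes, 1.52% were towards higher and 1.42% towards lower. Il18r1, the other subunit gene of the interleukin 18 receptor, was called at 1.70 ± 0.37, since it fell in NK cells (-0.86) and was at 0.92 in ILC1 (edgeR). Itga4 (1.61), Runx1 (1.07) and Bach2 (1.43) were called too. Of 12 NK markers, 6 were called towards lower, among them Eomes (-3.07, edgeR adjusted p = 0.0230), Klra4 (-4.32) and Klra8 (-6.01). Without the Rnls mutant day 10 graft 1, Eomes was at -2.02 (0.426), Klra4 at 3.63 (0.633) and Klra8 at -2.97 (0.678), so these calls rest on that graft, whereas Irf8, a transcription factor of NK cell maturation, stayed at -0.97 (0.0339).

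**Figure D5:**
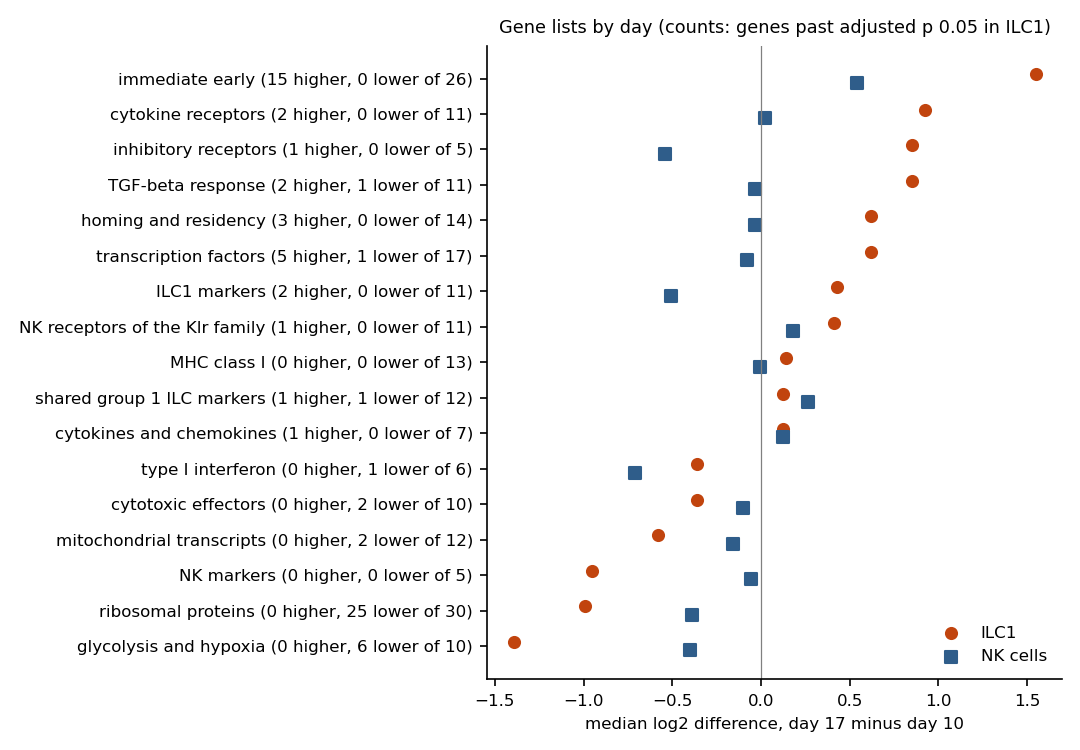
Points are the median log2 difference, day 17 minus day 10, over the tested members of each gene list in ILC1 (orange circles) and in NK cells of the same 8 grafts (blue squares), for lists with 5 or more genes tested in ILC1; the counts are genes past an edgeR adjusted p of 0.05 in ILC1. Immediate early genes are highest in ILC1 (1.55, against 0.54 in NK cells) and glycolysis genes lowest (-1.39, against -0.40).

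The genotype of the graft was the question for which the study was made. In ILC1 over both days, edgeR called 0 of 1770 genes between Rnls mutant and WT grafts (0.0%, 79 at an unadjusted p of 0.05, 0 in DESeq2). At day 10 it called 0 (118 unadjusted, 1 in DESeq2). At day 17 it called 1 (0.0565%, 65 unadjusted, 2 in DESeq2), with 2 grafts in each group.

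Of the cytokine genes, Ifng was at -1.49 ± 0.74 (edgeR adjusted p = 0.982), with -1.85 at day 10 and -1.13 at day 17, and its graft values overlapped between genotypes at day 17 and at day 10. Tgfb1 was at -0.08 ± 0.31 (adjusted p = 0.998), at 307, 178, 357 and 466 CPM in WT grafts and 311, 389, 328 and 143 CPM in Rnls mutant grafts. Tnf, too low to test in ILC1, had 11 UMIs in the WT and 0 in the Rnls mutant grafts of day 10, and 9 and 12 UMIs in those of day 17. Osm, encoding oncostatin M, had 4 and 1 UMIs in the Rnls mutant day 10 grafts, 3 in the Rnls mutant day 17 graft 2 and 0 in the other grafts. The activation markers Cd69 (0.39), Cd44 (0.77) and Rgs1 (-1.21) did not pass.

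Of the receptors for ligands on beta cells, Cd200r1 was at 47.2, 76.1, 214 and 143 CPM in ILC1 of WT grafts and 19.5, 20.4, 95 and 35.8 CPM in Rnls mutant grafts, a fitted difference of -1.32 (edgeR adjusted p = 0.982). Only 48 Cd200r1 UMIs in ILC1 of the 8 grafts lay behind these levels, and the difference over both days did not pass. Ceacam1 had 0 UMIs in ILC1 of all 8 grafts, and Sirpa had 1.

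The gene called at day 17 was Ccl8, a monocyte chemoattractant. It was at 47.6 and 89.7 CPM in ILC1 of the WT and 647 and 930 CPM of the Rnls mutant grafts (3.46 ± 0.51, edgeR adjusted p = 0.0225), and NK cells of the same grafts, at 64.2 and 107 CPM against 510 and 581 CPM, differed in the same direction (2.70, adjusted p = 0.00201). Ccl8 is foremost a macrophage transcript here, with a median of 4104 CPM in macrophages (1788 to 6806 CPM over 16 grafts). The macrophage and monocyte genes together, Ccr2 included, were at 1009 to 2105 CPM in ILC1 of the 4 Rnls mutant day 17 grafts and 449 to 1086 CPM of the 4 WT day 17 grafts. The call was lost without the WT day 17 graft 1 (3.02), the Rnls mutant day 17 graft 2 (3.70) or graft 3 (3.27), and without ILC1 that held a myeloid UMI (3.36).

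The genotype difference changed between the days for 1 gene (0.0565%), Gm42418, with 2289, 2714, 876 and 1166 CPM in ILC1 at day 10 and 2976, 2798, 7596 and 8617 CPM at day 17 (WT grafts first), a change of 2.69 ± 0.38 (edgeR adjusted p = 0.0142). The call was lost without any 1 of the WT day 10 graft 1 (2.79), WT day 10 graft 2 (2.61), WT day 17 graft 2 (2.67), Rnls mutant day 17 graft 2 (2.75) or Rnls mutant day 17 graft 3 (2.69). Fos was the 1 gene (0.0323%) whose genotype difference, over both days, differed between ILC1 and NK cells (3.51, adjusted p = 0.00403). It rests on the Rnls mutant day 17 graft 3, which held 44 of the 86 Fos UMIs in ILC1, and the difference was 2.25 and not called without that graft.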

How the data were processed

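CD45+ cells of 16 grafts were sequenced in 4 droplet libraries with 3' chemistry, and the authors deposited raw UMI counts for 32285 genes in 22441 cells with a table giving each cell's graft, cluster and type. Per the labels' processing notes, Cell Ranger and the mm10 genome were used, with versions not given in the sources used here. Deposited counts were summed per graft for ILC1 and for NK cells, and grafts with fewer than 10 ILC1 were left out of the sums (52 ILC1).

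Sums were fitted with edgeR 4.0.16 in R 4.3.3 (TMM scaling, filterByExpr, quasi-likelihood test, Benjamini-Hochberg adjustment at 0.05), with 1 coefficient for each genotype and day. ILC1 and NK cells were also fitted together with the graft as a block. Folds are log2 differences ± SE, and CPM is UMIs per 1000000 of a sum. Shares of cells over 16 grafts were compared by two-sided exact permutation tests (SciPy 1.17.1), exchanging labels within the other factor. Intervals of shares are exact binomial and those of ratios of UMIs exact, at 95%. To compare shares of cells with a UMI, cells were thinned to 1000 UMIs. The doublet score was from Scrublet in scanpy 1.11.5. Positions are from the GENCODE annotation of GRCm38.

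Genes were named by rule: for each comparison the 6 genes, or fewer, of lowest p in either direction, at most 10 per direction with the largest difference between ILC1 and NK cells among those with the same direction in all 8 grafts and at least 100 CPM in the higher type (ribosomal, mitochondrial and unnamed gene models left out), all measured group 1 markers, at most 5 members of each other gene list, and genes of the study's question. The members and lists were chosen with earlier results of these data known. Scripts were tested on simulated data. Alternatives were DESeq2 1.42.0, other filters on genes and cells, other blocks, and each graft left out in turn. Some genes that the rule named are not reported here.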

Additional observations from a re-analysis of the deposited data

Results flagged for a closer look

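A difference in day effect between ILC1 and NK cells passed the test for 91 of 3095 genes. Those with the smallest p towards higher in ILC1 were Fos (5.03 on the log2 scale), St6galnac3 (3.06), Klf6 (2.42), Ifrd1 (1.53), Lncpint (1.94) and Gramd3 (2.13). Towards lower they were Gzmb (-2.89), Tyrobp (-1.83), Tmsb4x (-0.84), Rpl32 (-0.91), Sh2d1a (-3.43) and Rpl35 (-1.06). Fos also differed between both cell types in its genotype effect (3.51), and Gm42418 differed between the days in its genotype effect in ILC1 (2.69).

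In 28 groups of 4 grafts, 2 grafts stood far from the others of their group. The Rnls mutant day 17 graft 2 had 60.6% ILC1 among its ILC1 and NK cells, and its gap to the next graft was 0.908 of the range of that group. The Rnls mutant day 10 graft 1 had a median of 6737 UMIs per ILC1, with a gap of 0.882 of the range. Chance alone puts about 1 in 20 groups past the limit used.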

How the results depend on the processing

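Of 699 checks on named genes, 613 kept direction and call, 66 lost the call, 19 moved and 1 reversed (Tyrobp, difference in day effect, 0.35 in the 8 small grafts alone). Between the days, 275 genes were called, against 176 with DESeq2, 419 with a minimum of 5 cells per graft, 121 without ILC1 holding a myeloid UMI, 77 with ILC1 thinned to 1000 UMIs (67.5% higher, against 46.9%), 71 without cells holding 2 or more T cell receptor UMIs (minimum of 1 cell) and 42 in the small grafts alone, and 59.0% were higher with no filter. Leaving out 1 graft gave 101 to 325. The genotype counts over both days, at day 10, at day 17 and for the change between days (0, 0, 1 and 1) became 3, 8, 2 and 4 with no filter and 0 to 1, 0 to 2, 0 to 2 and 0 to 8 without 1 graft. DESeq2 gave 1 at day 10 and 2 at day 17. Without NK marker cells there was 1 at day 10. Thinning gave 1 at day 10, 0 at day 17 and 2 for the change, the small grafts 1, 0 and 0, and leaving out T cell receptor or myeloid cells 0 at day 17 and 0 for the change. The difference in day effect (91) became 44 with DESeq2 (63.6% higher, against 51.6%), 50 with no filter (74.0% higher), 145 and 238 with a minimum of 1 and 5 cells, 3 without T cell receptor cells, 1 in the small grafts and 28 to 153 without 1 graft. The difference in genotype effect (1) became 0 with DESeq2, 4 with no filter, 0 in the small grafts and 1 to 7 without 1 graft. The identity count (121) became 56 with a minimum of 5 cells, 20 without T cell receptor cells and 149 to 184 without 1 graft. In the comparisons with NK cells, T cell receptor cells were left out of ILC1 only, and NK cells were kept whole. The identity rule asks for the same direction in every graft, so it is stricter with more grafts and looser with fewer. The causes were not tested. DESeq2 was given the same genes and grafts, and the other settings changed the genes, cells or grafts entered.

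Without 1 graft, the day difference in the ILC1 share was 1.02 to 1.62 points of CD45+ cells and 16.6 to 23.6 points of ILC1 and NK cells, and the genotype difference -0.698 to -0.0584 and -1.20 to 5.84 points, reversed at -1.20 without the Rnls mutant day 17 graft 2.

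Whether equal hashtag numbers mark the same mouse stayed unknown. Over 7 pairs with the same number, the correlation of deviations was -0.037 to 0.155, and 1 was over 0.1. Low correlations of such noisy values do not show that the mice differed. With the number as a replicate block, 93 genes were called between the days, 0 between genotypes at day 17 and 0 for the change between days. With no replicate block for the graft, 4 genes were called for the difference in day effect and 0 for that in genotype effect.

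The T cell receptor alternative with the minimum of 10 cells could not be fitted, and the version with a minimum of 1 cell, the thinned, marker-free and small-graft fits were added after the data were seen. With 11 to 60 ILC1 per graft and 2 grafts per genotype and day, small differences and genes of low level were not detectable.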

Other observations

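Trdv4, a T cell receptor delta variable segment, was at 94.4 and 25.4 CPM in ILC1 of the WT day 10 grafts, 19.5 and 0 CPM in the Rnls mutant day 10 grafts, 95.2 and 71.7 CPM in the WT day 17 grafts, and 207 and 286 CPM in the Rnls mutant day 17 grafts. NK cells of these grafts held 3.24 to 41.6 CPM of Trdv4, and ILC1 were higher in 6 of 8 grafts (log2 difference 1.70). The constant segment Trdc had the opposite sign, at -2.36. Tcrg-C4, a constant segment of the gamma locus, went with Trdv4, with 25 UMIs in ILC1 and 11 in NK cells of the 8 grafts. After thinning, 3.17% of ILC1 and 0.462% of NK cells had a Tcrg-C4 UMI. Of the 3 gamma delta T cell genes measured, 2 had a difference above 0. Maf, a transcription factor named after its values were seen, was higher in ILC1 than in NK cells in 8 of 8 grafts (1.69).

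Areg, encoding the growth factor amphiregulin, had 26 UMIs in ILC1 of the WT day 17 graft 1, 21 in the Rnls mutant day 17 graft 2, 2 in the Rnls mutant day 10 graft 3 and 0 in the other 5 grafts with sums.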
